A study of Rattus norvegicus with 12 samples.

Results

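Betaine was compared with no betaine in irradiated organotypic cultures of rat epidermal keratinocytes, and all detected genes of the array table were examined. The comparison set 3 cultures labelled BET+UVB against 3 labelled UVB, 6 of the 12 arrays of the series, and covered 10937 genes measured by 11255 of 22523 probes. A probe was kept when its detection p-value, the chance of such a signal among negative controls, was under 0.05 on at least 3 of the 12 arrays and it had a gene name. BET+UVB cultures had 10 mM betaine in the medium for 11 days and were given 30 mJ/cm2 of UVB, UVB cultures had the same irradiation and no betaine, BET cultures had 10 mM betaine for 11 days with mock irradiation, and CTRL cultures had mock irradiation alone. All groups held 2-week-old cultures of the REK cell line, a rat keratinocyte line that stratifies into an epidermis-like layer, grown without feeder cells, and the irradiated ones were collected 24 h after UVB. Nothing in the labels ties the cultures of a group to separate experiments, and p-values therefore measure only how far these cultures scatter, which may be technical.

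Betaine (trimethylglycine) is a compatible osmolyte: cells take it up or release it to adjust their water content, and kidney and skin cells exposed to high salt accumulate it together with sorbitol, myo-inositol and taurine. The transcription factor NFAT5 raises genes of that response, among them Akr1b1, which makes sorbitol, and the transporters Slc6a12, Slc5a3 and Slc6a6. Betaine is also made from choline by Chdh and gives its methyl group to homocysteine through Bhmt. In the epidermis, keratinocytes divide in the basal layer, then move upward while switching keratins and finally build the cornified envelope and its lipids, and UVB perturbs each of these steps.

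With betaine, 54 genes rose and 43 fell in irradiated cultures, at an adjusted p under 0.05 in limma with Benjamini-Hochberg adjustment over all 10937 genes. These were 0.494 percent and 0.393 percent of the genes tested, and 1854 genes had an unadjusted p under 0.05. Krt2, a keratin of the upper living layers, had the largest rise at 5.34-fold, and Ranbp3l, a Ran-binding protein, had the largest fall at 3.35-fold. As normalised here, falls were larger than rises: 15 genes fell at least 2-fold and 2 rose at least 2-fold. These sizes depended on the processing. Among called genes the change here was a median of 2.19 times that in the authors' processed values. There Krt2 changed by 0.82 log2, which is under 2-fold, and Ranbp3l by −1.77. Of all genes tested, 16.1 percent had 3 BET+UVB values that all lay above the 3 UVB values and 12.5 percent had 3 that all lay below them, and the 97 called genes were all of this kind. Levels are given below as normalised log2 intensities, changes as differences between them with the standard error of the model, and n is 3 cultures per group throughout.

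The number of calls depended on single cultures. It was 59, 43 and 26 without BET+UVB A, B or C, and 39, 31 and 45 without UVB A, B or C. Leaving out BET C, which enters only through the shared estimate of the spread, raised it to 238. In 22 genes, 9 higher and 13 lower, the call was kept whichever of the 12 arrays was left out. The rises among them were Krt2, Pcp4, Prss23, Ckb, Eef2k, Sostdc1, Bhlhe40 and 2 genes known only by identifiers. The falls were Ranbp3l, Serpina3n, Snx10, Upb1, Fxyd2, Ppp1r2, Cdc42ep2, Ctsh, Adcy8, Elf3, Akr1b1, Spmip4 and 1 identifier. All other calls named below were lost without at least 1 array.

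The labelled cell type was checked against its markers. All 8 keratinocyte markers on the array, including Krt14, Krt10 and Tp63, were detected on all 6 irradiated arrays, and their summed linear level was 137000 to 138000 in BET+UVB cultures and 134000 to 136000 in UVB cultures. Of 7 fibroblast markers 6 were undetected on all 6 arrays, as were all 3 endothelial markers on the array, Ptprc, Cd74 and Itgam of leukocytes, Tyr and Sox10 of melanocytes, and Atoh1 of Merkel cells. Cd3e and Cd68 of leukocytes, Mlana and Pmel of melanocytes, and Krt20 and Tubb3 of the Merkel cell and nerve list were detected on all 6 arrays. The summed linear level of the tested leukocyte markers was 170 to 180 in BET+UVB cultures and 160 to 166 in UVB cultures. That of the melanocyte markers was 255 to 276 in BET+UVB cultures and 267 to 331 in UVB cultures, and that of the Merkel cell and nerve markers 1250 to 1420 in BET+UVB cultures and 1240 to 1480 in UVB cultures. The part of such cells in the results was not tested. No marker of another cell type was called. Arrays of a group correlated at 0.996 to 0.997 in BET+UVB and 0.993 to 0.997 in UVB over the tested genes, and pairs across the groups at 0.987 to 0.994.

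The promoters of the gene with the largest rise and of the 3 genes with the largest falls are shown because the tonicity element bound by NFAT5, whose core is TGGAAA, is the regulatory sequence most closely tied to osmolytes. The sequences are the 250 bases before the start of transcription in the GRCr8 promoter table of RefSeq, taking the most upstream start listed, in 5′ to 3′ direction. Capitals mark TGGAAA or its reverse complement TTTCCA. Krt2 lies on the minus strand at chr7:134826737-134826986, and on the plus strand lie Ranbp3l at chr2:59784820-59785069, Serpina3n at chr6:129088142-129088391 and Snx10 at chr4:81943073-81943322.
Krt2: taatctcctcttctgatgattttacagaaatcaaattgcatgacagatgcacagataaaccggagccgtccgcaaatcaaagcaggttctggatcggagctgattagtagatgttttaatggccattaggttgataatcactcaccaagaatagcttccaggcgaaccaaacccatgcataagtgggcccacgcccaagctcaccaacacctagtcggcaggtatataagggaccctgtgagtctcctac
Ranbp3l: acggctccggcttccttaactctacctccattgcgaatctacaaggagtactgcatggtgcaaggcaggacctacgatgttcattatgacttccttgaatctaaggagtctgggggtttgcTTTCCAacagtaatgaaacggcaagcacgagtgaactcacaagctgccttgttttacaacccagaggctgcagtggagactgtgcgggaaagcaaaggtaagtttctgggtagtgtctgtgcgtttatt
Serpina3n: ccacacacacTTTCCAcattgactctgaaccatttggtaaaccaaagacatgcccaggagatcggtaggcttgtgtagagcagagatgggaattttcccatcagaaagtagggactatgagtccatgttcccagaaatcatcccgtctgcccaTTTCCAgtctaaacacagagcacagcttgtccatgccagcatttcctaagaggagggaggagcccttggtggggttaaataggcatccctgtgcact
Snx10: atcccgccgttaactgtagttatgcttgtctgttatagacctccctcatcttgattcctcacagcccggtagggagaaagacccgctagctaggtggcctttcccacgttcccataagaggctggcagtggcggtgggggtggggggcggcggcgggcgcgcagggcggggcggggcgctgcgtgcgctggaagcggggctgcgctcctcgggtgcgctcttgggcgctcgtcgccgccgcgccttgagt
Ranbp3l held 1 match and Serpina3n 2, while Krt2 and Snx10 held none in this window. Among tested genes 70.2 percent had an entry in the table, and 14.8 percent of those held the core. Of called genes with an entry, 7 of 32 that rose and 5 of 30 that fell held it, which is 19.4 percent of the 62 together. The other genes with the core were Egr1, Nr1d1, Pik3ip1, Pmp22, Reck, Sema4f and Slitrk6 among the rises, and Rps6ka6, Tm6sf1 and Trib2 among the falls. A match of 6 bases is a description of the sequence and does not show binding.

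Among 19 keratins measured, 1 rose and 1 fell, which is 10.5 percent beside 0.887 percent of all genes. Krt2 had 8.20, 8.41 and 8.001 in BET+UVB cultures, against 5.89, 6.23 and 5.24 in UVB cultures. Each betaine-treated culture lay more than 1.5 log2 units above every untreated one, and in UVB cultures the probe was detected in 2 of 3. The rise was 2.42 ± 0.32 log2 (adjusted p = 0.006), and 0.82 in the authors' processed values, where the adjusted p was 0.066. As each array measured RNA of a whole epidermal layer, here and below a change in the share of cells that express a gene and a change in RNA per cell cannot be told apart. Krt36, a hair keratin whose probe was named through an older synonym, fell by 0.59 ± 0.11 (adjusted p = 0.036) and was detected in 1 BET+UVB culture and 3 UVB cultures. The median change of the 19 keratins was −0.05 beside 0.005 over all genes. Of the 19, 6 had an unadjusted p under 0.05, beside 1854 of all 10937 genes. Krt13, Krt23 and Krt80, picked after their values were seen, changed by −1.06, −1.13 and −1.13 without a call (adjusted p = 0.123, 0.16 and 0.327). Krt1, Krt10 and Krt14, the main keratins of the suprabasal and basal layers, changed by 0.04, −0.05 and 0.03 without a call. Krt16, a keratin of wounded and stressed epidermis, had 12.91, 12.38 and 11.94 in BET+UVB cultures, against 12.81, 13.05 and 13.40 in UVB cultures. Its groups overlapped, and the change of −0.68 ± 0.28 was not called (adjusted p = 0.256).

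**Figure D1:**
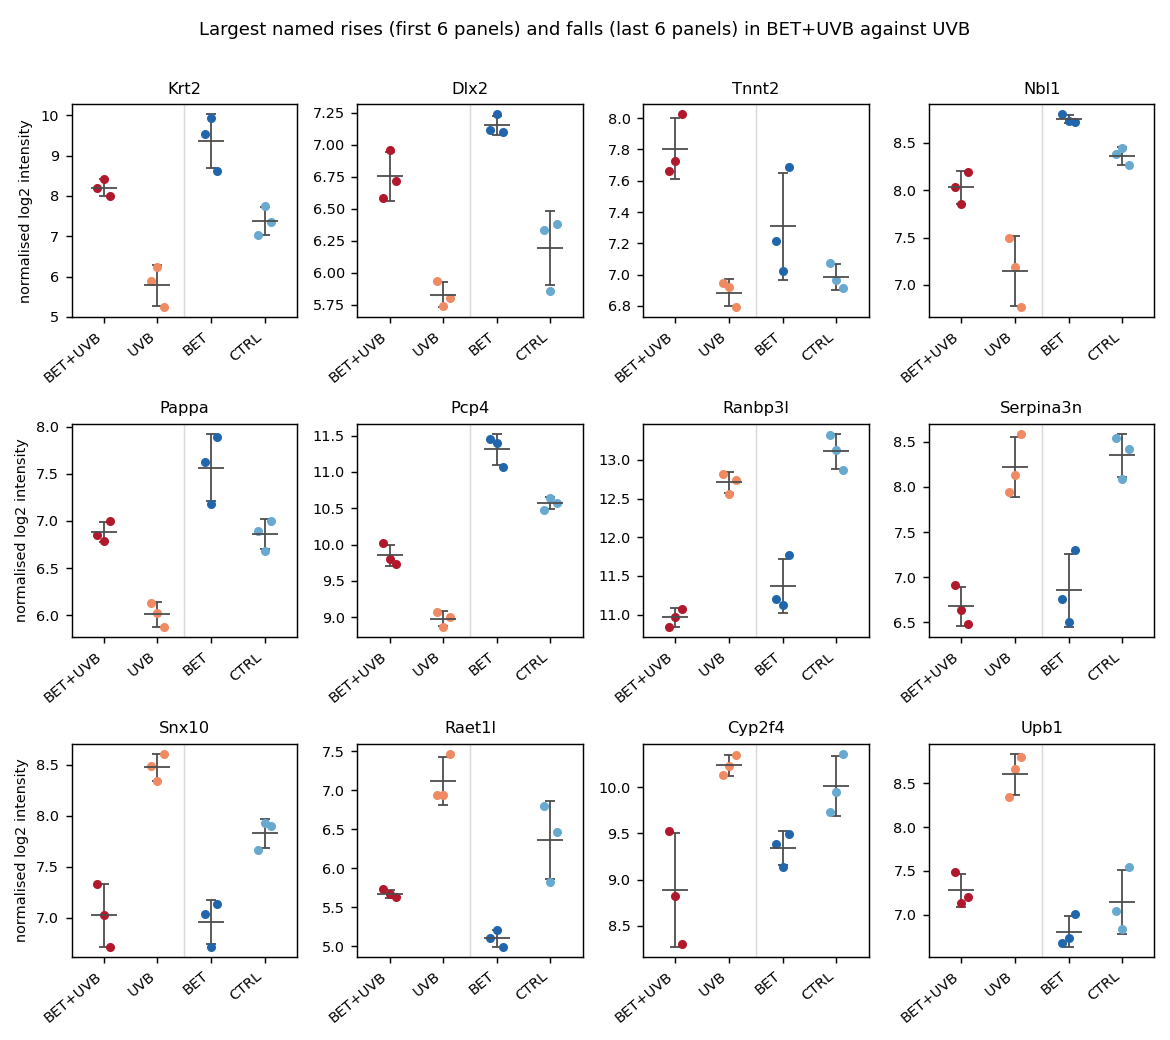
Normalised log2 intensity of each culture (points), with group mean and SD (bars; 3 cultures per group), for the 6 largest rises and 6 largest falls among called genes with a symbol. The BET+UVB points lie apart from the UVB points in every panel, as in all 97 called genes. Each panel has its own axis, which does not start at 0.

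Ranbp3l and Fxyd2 had the falls with the smallest adjusted p. Ranbp3l, a RAN-binding protein known in mice to carry SMAD proteins out of the nucleus, had 10.84, 10.97 and 11.08 in BET+UVB cultures, against 12.81, 12.56 and 12.74 in UVB cultures. It fell by 1.74 ± 0.17 log2 (adjusted p = 0.00101). Fxyd2, the gamma subunit that modulates the sodium-potassium pump and is best known from the kidney, had 11.21, 11.17 and 11.17 in BET+UVB cultures, against 12.25, 12.31 and 12.55 in UVB cultures. The 3 treated cultures differed from each other by less than 0.1, and the fall was 1.18 ± 0.09 (adjusted p = 2.42e-04), with −1.21 at the other probe of the gene. Of 23 pump, FXYD and channel genes measured, Fxyd2 was the only call, 4.35 percent beside 0.887 percent of all genes. Atp1b1, a beta subunit of the pump, changed by −0.48 without a call (adjusted p = 0.50).

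The genes of osmolyte handling gave 2 falls and no rise among 19 measured, 10.5 percent beside 0.393 percent of all genes called lower, with a median change of −0.04. The list was chosen with earlier results of these data known. Akr1b1, aldose reductase, had 12.46, 12.50 and 12.49 in BET+UVB cultures, against 13.25, 13.22 and 13.56 in UVB cultures, and fell by 0.86 ± 0.12 (adjusted p = 0.00665). Hspa4l, a heat shock protein of the Hsp110 family that was first described as an osmotic stress protein, had 9.66, 9.73 and 9.46 in BET+UVB cultures, against 10.52, 10.59 and 10.30 in UVB cultures. In both genes all treated cultures lay below all untreated ones, as in every gene called lower. Hspa4l was 1.81-fold lower (adjusted p = 0.0115), a call that was lost without each of 3 arrays.

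The osmolyte transporters themselves were not called. Slc5a3, the sodium myo-inositol transporter, had 9.96, 9.88 and 10.09 in BET+UVB cultures, against 10.68, 10.52 and 10.41 in UVB cultures. The groups did not overlap, as in 12.5 percent of all genes in this direction, and the change was −0.56 ± 0.20 with an adjusted p of 0.199. In a model of these 6 arrays alone the adjusted p was 0.0344. That model called 318 genes, against 97 in the main model, and lost 7 of the 82 named calls. Slc6a6, the taurine transporter, changed by 0.10 ± 0.29 (adjusted p = 0.891), and Nfat5 by 0.31 (adjusted p = 0.50). Slc6a12, the betaine transporter, was undetected on all 12 arrays. Of 22 genes of betaine, choline and methionine metabolism 1 was called, or 4.55 percent beside 0.887 percent of all genes. Chdh, choline dehydrogenase, had 10.05, 10.16 and 10.28 in BET+UVB cultures, against 9.81, 9.62 and 9.53 in UVB cultures, and rose by 0.51 ± 0.10 (adjusted p = 0.0406), a call lost without any of these 6 arrays. Bhmt changed by −0.02 ± 0.14 (adjusted p = 0.962) and Ahcy, which splits S-adenosylhomocysteine, by −0.21 ± 0.08 (adjusted p = 0.239).

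TGF-beta and BMP genes held the most calls of the 28 gene lists: 7 of 24 measured rose, which is 29.2 percent beside the 0.494 percent of all genes called higher, and 0 fell. The list median was 0.28 log2 beside 0.005 over all genes, and 0.24 to 0.38 when 1 of the 6 arrays was left out. The called members were the secreted antagonists Nbl1, Sostdc1, Fst and Chrd, which bind BMPs or activins, the ligand Tgfb2, and the target genes Tgfbi and Id2. The list was chosen with earlier results of these cultures known, among them the level of Nbl1.

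Nbl1, a BMP antagonist of the DAN family, had 8.04, 7.85 and 8.20 in BET+UVB cultures, against 7.49, 7.19 and 6.76 in UVB cultures. It rose by 0.88 ± 0.15 (adjusted p = 0.0218). Sostdc1, which binds BMPs and the WNT co-receptor LRP6, had 12.72, 12.83 and 12.84 in BET+UVB cultures, against 12.29, 12.15 and 12.14 in UVB cultures. With a rise of 0.60 ± 0.08 (adjusted p = 0.00599) it was the member whose call survived the loss of any 1 array. Fst, follistatin, which traps activin, had 10.11, 10.31 and 10.28 in BET+UVB cultures, against 9.67, 9.64 and 9.83 in UVB cultures (0.52 ± 0.09, adjusted p = 0.0242). Chrd, chordin, was detected in 2 BET+UVB cultures and in no UVB culture. As normalised here its rise was at least 1.08-fold, taken against the lowest signal detected on each UVB array (adjusted p = 0.0242). In the authors' processed values the rise of Chrd was 0.104 log2 and the call was lost. It had 5.75, 5.57 and 5.80 in BET+UVB cultures, against 5.24, 5.16 and 5.26 in UVB cultures.

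Tgfb2, the ligand, had 8.49, 8.32 and 8.52 in BET+UVB cultures, against 7.98, 7.60 and 7.64 in UVB cultures, and rose by 0.71 ± 0.11 (adjusted p = 0.0115). Tgfbi, a secreted matrix protein induced by TGF-beta, rose by 0.51 ± 0.10 (adjusted p = 0.0395). Id2, an inhibitor of basic helix-loop-helix factors and a BMP target, had 10.88, 10.93 and 11.12 in BET+UVB cultures, against 10.43, 10.49 and 10.58 in UVB cultures. The groups did not overlap in any of these genes, which was true of all 97 called genes. Receptors were not called: Tgfbr1 changed by −0.07, Tgfbr2 by −0.00 and Bmpr1a by 0.28. Among BMP ligands, Bmp2 changed by 0.32 and Bmp4 by 0.04, and among other antagonists Nog, noggin, changed by 0.58 and the decoy receptor Bambi by −0.51, all without a call. The calls of these genes were lost without 3 arrays for Nbl1 and Tgfb2, 4 for Fst, 5 for Chrd and Id2, and 9 for Tgfbi.

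**Figure D2:**
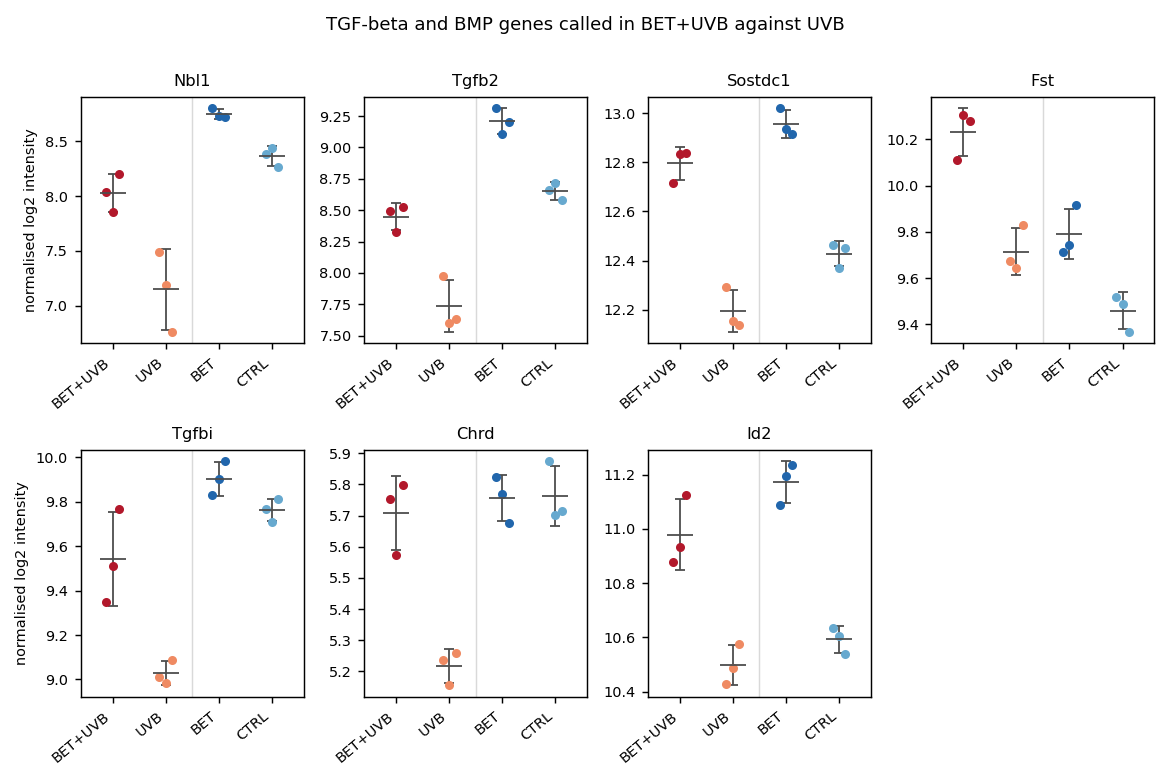
Normalised log2 intensity of the 7 called TGF-beta and BMP genes in each culture (points), with group mean and SD (bars; 3 cultures per group). All BET+UVB points lie above all UVB points in each panel, as in every gene called higher. Each panel has its own axis, which does not start at 0.

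Transcription factors of several families were called. Dlx2, a homeobox factor of ectoderm, had 6.59, 6.96 and 6.72 in BET+UVB cultures, against 5.93, 5.74 and 5.80 in UVB cultures, and rose by 0.93 ± 0.14 (adjusted p = 0.0107). Egr1, an immediate early zinc finger factor, had 11.81, 11.75 and 11.86 in BET+UVB cultures, against 11.11, 11.03 and 11.34 in UVB cultures (0.64 ± 0.11, adjusted p = 0.0203). It was the one call among 18 immediate early factors, 5.56 percent beside 0.887 percent of all genes. Bhlhe40, a repressor of the circadian clock, was higher by 0.60 ± 0.08 (adjusted p = 0.006), and Nr1d1, the clock repressor REV-ERB alpha, by 0.50 ± 0.10 (adjusted p = 0.0309). Elf3, an epithelial ETS factor that acts on late differentiation genes, had 6.94, 6.97 and 6.58 in BET+UVB cultures, against 7.58, 7.59 and 7.995 in UVB cultures. It fell by 0.89 ± 0.13 (adjusted p = 0.00976). Among 37 epidermal transcription factors 2 rose, Dlx2 and Id2, and 1 fell, Elf3, which is 8.11 percent beside 0.887 percent of all genes, and the list median was 0.16. Arnt, the partner of HIF and of the aryl hydrocarbon receptor, was undetected in all 3 BET+UVB cultures and detected in all 3 UVB cultures. Its fall was at least 1.61-fold as normalised here (adjusted p = 0.0141). In the authors' processed values Arnt changed by −0.166 log2 and the call was lost (adjusted p = 0.0646). The transcriptional corepressor Bcor was higher by 0.41 ± 0.07 (adjusted p = 0.0163).

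Enzymes of detoxification moved in both directions. Gsta4, a glutathione transferase that takes up the lipid aldehyde hydroxynonenal, had 6.37, 6.02 and 6.44 in BET+UVB cultures, against 7.44, 7.29 and 7.90 in UVB cultures, and fell by 1.27 ± 0.20 (adjusted p = 0.0141). Its relative Gsta5 fell by 1.02 ± 0.21 at the edge of the threshold (adjusted p = 0.0499), and near-identical alpha-class transferases may share its probe. Cyp2f4, a cytochrome P450, had 9.53, 8.82 and 8.30 in BET+UVB cultures, against 10.13, 10.23 and 10.36 in UVB cultures (−1.35 ± 0.25, adjusted p = 0.0292). Its treated cultures spread over more than 1 log2 unit and lay below all untreated ones, as in every gene called lower. Aldh3a1, an aldehyde dehydrogenase abundant in cornea, had 8.30, 8.12 and 8.63 in BET+UVB cultures, against 7.68, 7.74 and 7.08 in UVB cultures. It rose by 0.85 ± 0.17 (adjusted p = 0.0379), and Aldh3a2, the fatty aldehyde dehydrogenase, rose by 0.41 ± 0.08 (adjusted p = 0.0364), with −0.06 at its other probe. Both rises lost their calls in a model of these 6 arrays alone (adjusted p = 0.0611 for Aldh3a1 and 0.0515 for Aldh3a2). Of the 12 arrays, the calls were lost without 9 for Aldh3a1 and for Aldh3a2, 10 for Gsta5, 5 for Cyp2f4 and 2 for Gsta4. Of 41 NRF2 and antioxidant genes, Aldh3a1 and Gsta4 were the calls, 4.88 percent beside 0.887 percent of all genes, and the median was −0.05.

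Upb1, which completes pyrimidine breakdown by forming beta-alanine, had 7.49, 7.14 and 7.21 in BET+UVB cultures, against 8.34, 8.66 and 8.80 in UVB cultures. It fell by 1.32 ± 0.18 (adjusted p = 0.00665). Ckb, brain-type creatine kinase, had 8.30, 8.42 and 8.55 in BET+UVB cultures, against 7.50, 7.68 and 7.71 in UVB cultures, a rise of 0.80 ± 0.09 (adjusted p = 0.00237). Eef2k, the kinase that slows translation by phosphorylating elongation factor 2, had 9.57, 9.57 and 9.63 in BET+UVB cultures, against 8.95, 8.89 and 8.70 in UVB cultures (0.74 ± 0.08, adjusted p = 0.00202). The groups of these 3 genes did not overlap, which was true of all 97 called genes. Car5b, a mitochondrial carbonic anhydrase, fell by 0.48 ± 0.09, and Nans, which makes sialic acid, by 0.55 ± 0.11.

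Proteases and their inhibitors included some of the largest changes. Serpina3n, a secreted inhibitor of serine proteases, had 6.91, 6.64 and 6.48 in BET+UVB cultures, against 7.94, 8.13 and 8.59 in UVB cultures, and fell by 1.54 ± 0.22 (adjusted p = 0.00684). Ctsh, the lysosomal cathepsin H, had 7.99, 7.85 and 7.93 in BET+UVB cultures, against 8.97, 8.83 and 9.27 in UVB cultures, and fell by 1.10 ± 0.12 (adjusted p = 0.00173). Both were lower in every treated culture, as was every gene called lower. Prss23, a serine protease, had 10.16, 10.40 and 10.42 in BET+UVB cultures, against 9.62, 9.55 and 9.24 in UVB cultures (0.85 ± 0.11, adjusted p = 0.00567). Pappa, a metalloprotease that frees insulin-like growth factor from its binding proteins, rose by 0.87 ± 0.16 (adjusted p = 0.0247), and Reck, a membrane inhibitor of metalloproteases, rose by 0.70 ± 0.12 (adjusted p = 0.0157), with 0.20 at its other probe. In the list of 32 proteases, inhibitors and matrix genes Serpina3n was the one call, 3.12 percent beside 0.887 percent of all genes. The list median was 0.01.

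Other called genes belonged to none of the gene lists described so far. Snx10, a sorting nexin of endosomes, had 7.33, 7.02 and 6.72 in BET+UVB cultures, against 8.48, 8.34 and 8.60 in UVB cultures, and fell by 1.45 ± 0.16 (adjusted p = 0.00173). Cdc42ep2, an effector of the small GTPase CDC42, had 6.95, 7.25 and 6.68 in BET+UVB cultures, against 8.004, 8.08 and 8.17 in UVB cultures, and fell by 1.12 ± 0.12 (adjusted p = 0.00173). Adcy8, a calcium-stimulated adenylyl cyclase, fell by 1.04 ± 0.13 (adjusted p = 0.00565), and Ppp1r2, an inhibitor of protein phosphatase 1, fell by 1.13 ± 0.16 (adjusted p = 0.00684) and was detected in 1 BET+UVB culture and 3 UVB cultures. These 4 falls kept their calls without any 1 array. Add2, beta-adducin of the membrane skeleton, fell by 0.97 ± 0.19 (adjusted p = 0.0363), and Cdh13, a cadherin held by a lipid anchor, by 0.64 ± 0.10 (adjusted p = 0.0115).

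Pcp4, a small calmodulin-binding protein, had 10.02, 9.80 and 9.73 in BET+UVB cultures, against 9.07, 8.86 and 9.01 in UVB cultures, and rose by 0.87 ± 0.12 (adjusted p = 0.00659). Nt5e, the CD73 enzyme that makes adenosine outside the cell, had 9.84, 9.81 and 10.00 in BET+UVB cultures, against 9.25, 9.07 and 8.97 in UVB cultures (0.79 ± 0.11, adjusted p = 0.00905). Dab2, an endocytic adaptor, rose by 0.79 ± 0.15 (adjusted p = 0.0314), and Tnnt2, cardiac troponin T, by 0.92 ± 0.15 (adjusted p = 0.016). Slitrk6, a transmembrane protein of neurons and the inner ear, rose by 0.83 ± 0.14 (adjusted p = 0.0141). Further rises of receptors and adhesion proteins were Sema4f, a semaphorin (0.64), Ephb6, an Eph receptor without kinase activity (0.51), and Flrt3, a membrane protein of cell contacts (0.46). Slc16a6, of the monocarboxylate transporter family, rose by 0.56. The calls of Dab2, Slc16a6 and Flrt3 were lost without any of the 6 arrays, that of Tnnt2 without 5, those of Sema4f and Ephb6 without 4, that of Slitrk6 without 3 and that of Nt5e without 1.

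Genes of the immune system were called one by one. Ccl5, a chemokine for T cells and monocytes, was detected in 3 BET+UVB cultures and in no UVB culture. Its rise was at least 1.24-fold as normalised here (adjusted p = 0.011), and 0.14 log2 in the authors' processed values. It had 5.92, 5.85 and 5.96 in BET+UVB cultures, against 5.15, 5.12 and 5.44 in UVB cultures. Cxcl12, the ligand of CXCR4, had 10.21, 10.20 and 10.15 in BET+UVB cultures, against 9.61, 9.62 and 9.75 in UVB cultures, and rose by 0.53 ± 0.09 (adjusted p = 0.0163). These were 2 calls among 18 chemokines, cytokines and mediators, 11.1 percent beside 0.494 percent of all genes called higher, whose median was −0.02. Raet1l, a ligand of the NKG2D receptor on natural killer cells, had 5.73, 5.66 and 5.63 in BET+UVB cultures, against 6.94, 6.94 and 7.47 in UVB cultures, and fell by 1.44 ± 0.21 (adjusted p = 0.00905). Sectm1a, of a family of secreted and membrane proteins, rose by 0.82 ± 0.16 (adjusted p = 0.0364). In the NF-kappaB pathway, Card10, a scaffold protein, rose by 0.68 (adjusted p = 0.0291) and Map3k14, the kinase NIK, by 0.65 (adjusted p = 0.0446). Tifa, an adaptor that binds TRAF6, fell by 0.54 (adjusted p = 0.0395). These calls were lost without 5 arrays for Card10 and 8 for Map3k14 and for Tifa. In the authors' processed values the calls of Ccl5, Sectm1a, Map3k14 and Tifa were lost.

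Il1a and Ccl2, an interleukin and a monocyte chemokine often measured after UVB, were not called. Il1a had 10.56, 10.29 and 9.93 in BET+UVB cultures, against 11.19, 11.10 and 10.70 in UVB cultures. These groups did not overlap, as in 12.5 percent of all genes in this direction, and the change was −0.73 ± 0.29 (adjusted p = 0.241). Ccl2 had 7.57, 7.13 and 7.06 in BET+UVB cultures, against 7.73, 7.70 and 9.34 in UVB cultures. Here UVB culture C stood above the other UVB cultures, and the change of −0.998 ± 0.351 was not called (adjusted p = 0.199). Has2, a hyaluronan synthase, changed by −0.31 ± 0.21 (adjusted p = 0.477), and none of 13 hyaluronan genes was called. No call was made among 16 interleukin 1 family genes (median −0.07) or 18 interferon-stimulated genes (median 0.02). An unadjusted p under 0.05 was reached by 7 of the 16 and 2 of the 18, beside 1854 of all 10937 genes.

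Of the genes of late differentiation and barrier lipids 1 was called. Of 32 cornified envelope and late differentiation genes limma called 0, 10 reached an unadjusted p under 0.05, and 26 of 32 had a negative change, as had 5344 of all 10937 genes, with a median of −0.36 beside 0.005 over all genes. The median was −0.45 to −0.24 when 1 of the 6 arrays was left out. Over all 10937 genes, 1854 reached an unadjusted p under 0.05. Flg, filaggrin, had 12.03, 12.36 and 11.74 in BET+UVB cultures, against 12.75, 12.81 and 11.87 in UVB cultures. Involucrin (Ivl) had 7.60, 7.57 and 7.33 in BET+UVB cultures, against 8.11, 8.01 and 7.46 in UVB cultures. In both genes UVB culture C lay among the treated cultures, and the changes of −0.43 and −0.36 had adjusted p-values of 0.526 and 0.495. The most negative member was the protease Klk7, which cuts the links between cornified cells, at −1.05 (adjusted p = 0.31), a gene picked after its value was seen. The loricrin gene was undetected on all 12 arrays.

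Among 27 ceramide and barrier lipid genes 1 was called, 3.7 percent beside 0.887 percent of all genes. Degs2, which makes phytoceramide, had 7.17, 6.80 and 6.50 in BET+UVB cultures, against 8.04, 8.01 and 7.78 in UVB cultures, and fell by 1.12 ± 0.19 (adjusted p = 0.0163), a call lost without each of 4 arrays. The list median was −0.33, with 21 of 27 negative, and −0.46 to −0.26 without 1 of the 6 arrays. Alox12b, a lipoxygenase of the barrier, changed by −0.78 (adjusted p = 0.20). In mock-irradiated cultures the medians of both lists had the other sign, 0.10 for the cornified envelope list and 0.10 for the lipid list. That difference was not tested as a list, and no single member was called in the test of the difference. In the basal layer list, 17 of 23 members were positive, as were 5593 of all 10937 genes, and 0 were called, with a median of 0.17. Krt15, a basal keratin, changed by 0.19 ± 0.14 (adjusted p = 0.508).

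**Figure D3:**
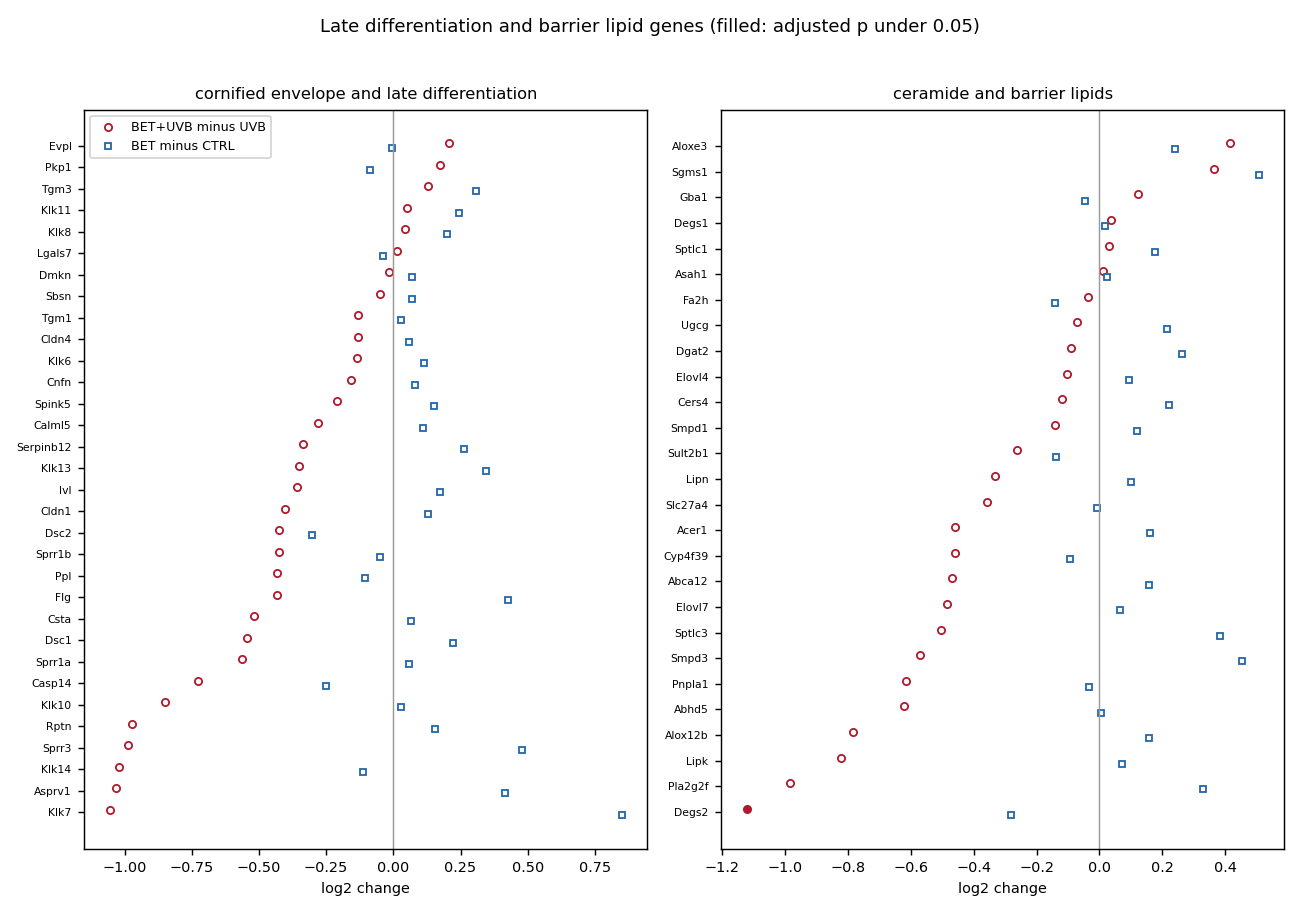
Log2 change of each measured member of the cornified envelope list (left) and the ceramide and barrier lipid list (right), BET+UVB minus UVB as circles and BET minus CTRL as squares; filled symbols have an adjusted p under 0.05. Most circles lie below 0 (26 of 32 and 21 of 27), and Degs2 is the one filled symbol.

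Of 40 mitosis genes and 45 DNA replication genes 1 was called. Mad2l1, a checkpoint protein of the spindle, had 5.75, 5.70 and 5.71 in BET+UVB cultures, against 6.48, 6.31 and 6.46 in UVB cultures, and fell by 0.70 ± 0.11 (adjusted p = 0.0141). It was the one call among the mitosis genes, 2.5 percent beside 0.887 percent of all genes. The median of the mitosis genes was −0.03 with 25 of 40 negative. Ccne2, cyclin E2, fell by 0.62 ± 0.13 (adjusted p = 0.0448). Of the DNA replication genes limma called 0, and 11 had an unadjusted p under 0.05, beside 1854 of all 10937 genes. The list median was −0.10. Of these 45 genes 34 had a negative change, beside 5344 of all 10937 genes, and the median was −0.15 to −0.06 when 1 of the 6 arrays was left out. Mcm3 of the replicative helicase had 10.08, 9.79 and 9.89 in BET+UVB cultures, against 10.10, 9.94 and 9.94 in UVB cultures, and Mki67 changed by −0.00 ± 0.13. The groups overlapped for both. Of 20 p53 targets none was called and 2 had an unadjusted p under 0.05. Mdm2 changed by 0.25 ± 0.09 (adjusted p = 0.202), and Cdkn1a, p21, by −0.08 ± 0.31 (adjusted p = 0.925). In the apoptosis list of 22 genes Dapk1, a death-associated kinase, fell by 0.86 ± 0.14 (adjusted p = 0.0148). It was detected in 1 BET+UVB culture and 3 UVB cultures. Dapk1 was the one call of that list, 4.55 percent beside 0.887 percent of all genes.

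The other lists held no call in limma. Members measured and median changes were 10 and −0.12 for serine and folate metabolism, 24 and −0.11 for amino acid stress genes, 22 and −0.03 for heat shock and chaperone genes, and 22 and −0.01 for nucleotide excision repair. They were 20 and 0.04 for EGF receptor ligands and feedback inhibitors, 24 and −0.16 for cholesterol and fatty acid synthesis, 7 and 0.06 for vitamin D genes and 32 and 0.01 for ribosomal proteins. Among these, 11 cholesterol and fatty acid genes, 7 amino acid stress genes and 7 EGF receptor genes had an unadjusted p under 0.05. Over all 10937 genes the count was 1854. Cyp24a1, the vitamin D 24-hydroxylase, had 13.18, 12.91 and 12.60 in BET+UVB cultures, against 13.29, 13.23 and 12.90 in UVB cultures, and the change of −0.24 ± 0.15 was not called (adjusted p = 0.452). In all, 13 of the 28 lists had a called member and 15 had none.

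**Figure D4:**
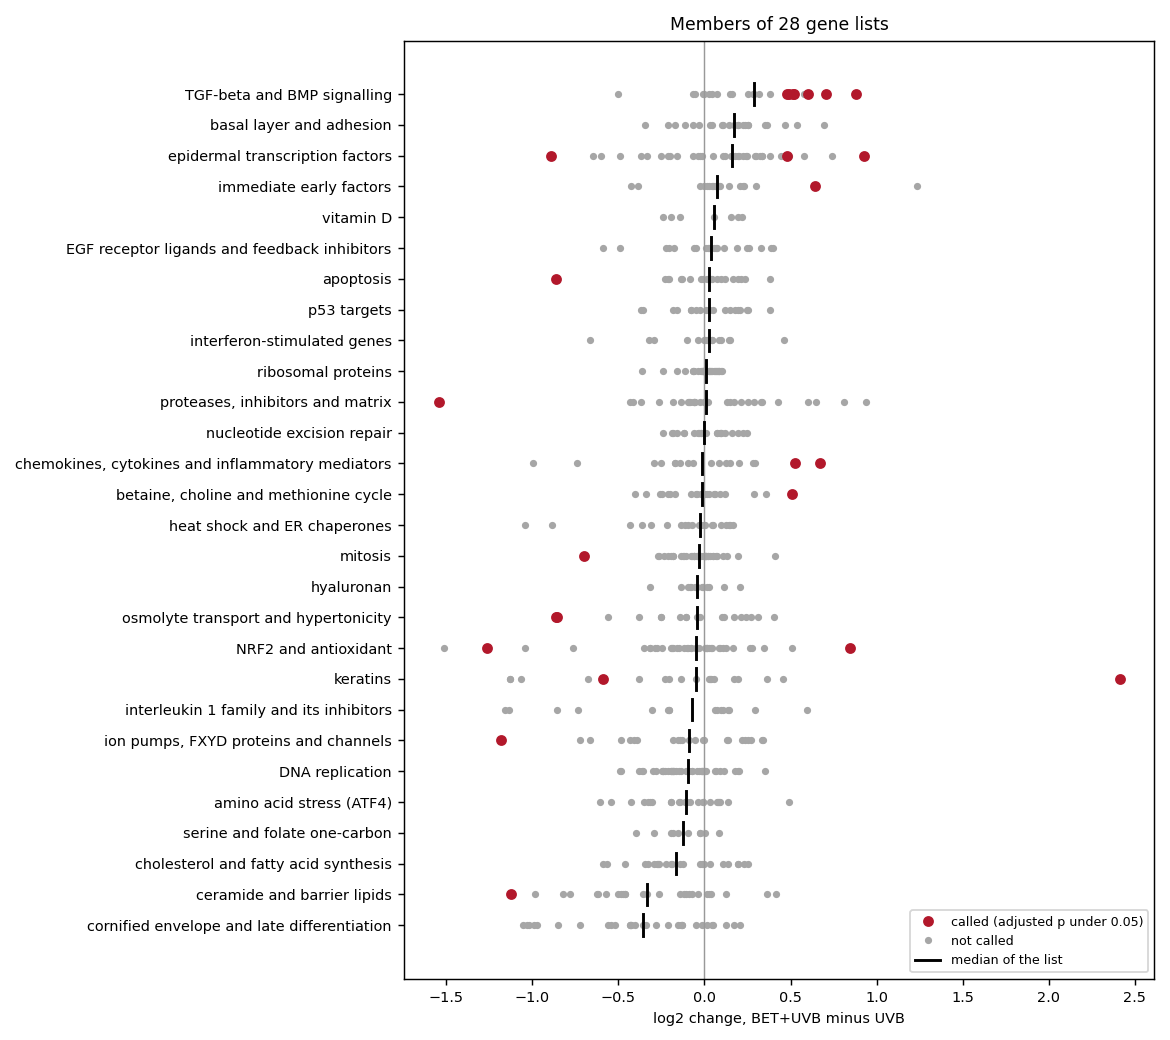
Log2 change, BET+UVB minus UVB, of every measured member of the 28 gene lists, ordered by the list median (black ticks); larger red points are called at an adjusted p under 0.05. The TGF-beta and BMP list has 7 called points and the highest median, 0.28, and the cornified envelope list has the lowest, −0.36.

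The remaining calls completed the set. Rises were seen in Pmp22 (0.59), a membrane protein of myelin and epithelial junctions, Pik3ip1 (0.56), an inhibitor of phosphoinositide 3-kinase, Sytl2 (0.51), an effector of RAB27 in vesicle transport, C2cd5 (0.66), Sertad4 (0.48), Arvcf (0.47), a catenin of cadherin contacts, and Unc45a (0.45), a chaperone of myosin. Falls were seen in Tm6sf1 (−0.84), Slc29a4 (−0.77), a monoamine transporter, Galnt7 (−0.69), which starts O-glycan chains, Vopp1 (−0.56), Ap1s2 (−0.47), a clathrin adaptor subunit, and Cab39l (−0.40). Rps6ka6, a ribosomal S6 kinase, was undetected in all 3 BET+UVB cultures and fell at least 1.32-fold as normalised here. In the authors' processed values Rps6ka6 changed by −0.156 log2 and the call was lost. Lypd2 (−0.71), of the LY6 family, Trib2 (−0.68), a pseudokinase, Spmip4 (−0.59), a sperm microtubule protein, and Khdrbs3 (−0.53), an RNA-binding protein, also fell. A further 12 rises and 5 falls carry only an identifier. The largest rises of these were RGD1562717, which rose by 1.63 ± 0.18 (adjusted p = 0.00173), and LOC299898, which rose by 0.95 ± 0.15 (adjusted p = 0.0115).

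The same betaine treatment in mock-irradiated cultures, BET against CTRL, shares no array with this comparison. It raised 40 genes (0.366 percent) and lowered 58 (0.53 percent). With arrays scaled by their medians it raised 21 and lowered 109, with the median change of all genes at −0.067, against 0.002 as normalised here. The lists of calls shared 21 rises and 18 falls, together 40.2 percent of the calls in irradiated cultures and 39.8 percent of those in mock-irradiated cultures, and no gene was called in opposite directions. Of the 97 genes called after irradiation, 89 had the same sign in mock-irradiated cultures, 91.8 percent, beside 58.9 percent of all 10937 genes. Taken in the direction of the call, their median change was 0.70 log2 in irradiated cultures and 0.42 in mock-irradiated cultures, and the irradiated values were the ones used to choose the genes. The number of shared calls was 12 to 32 when 1 of the 12 arrays was left out, lowest without BET B. It was 149 with arrays weighted by their scatter. Both comparisons took their spread from the same model of 12 arrays, so the lists of calls are not independent. In a model of its own groups alone, BET against CTRL had 7 calls.

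Several genes moved by like amounts in both settings. Ranbp3l changed by −1.74 ± 0.17 in irradiated and by −1.74 ± 0.17 in mock-irradiated cultures (adjusted p = 0.00101 and 0.00118), a difference between the changes of −0.00 ± 0.23. Fxyd2 changed by −1.18 ± 0.09 in irradiated and −1.30 ± 0.09 in mock-irradiated cultures, Serpina3n by −1.54 in irradiated and −1.50 in mock-irradiated cultures, and Akr1b1 by −0.86 in irradiated and −0.76 in mock-irradiated cultures. Krt2 rose by 2.42 in irradiated and 1.98 in mock-irradiated cultures. Dlx2 rose by 0.93 and 0.96, Eef2k by 0.74 and 0.68, Sostdc1 by 0.60 and 0.53 and Tgfb2 by 0.71 and 0.56, each pair being irradiated and then mock-irradiated cultures. All of these passed in both comparisons. Egr1 and Ccl5 passed in both with the larger rise in mock-irradiated cultures, 0.64 in irradiated and 1.04 in mock-irradiated cultures for Egr1, and 0.67 in irradiated and 1.04 in mock-irradiated cultures for Ccl5.

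**Figure D5:**
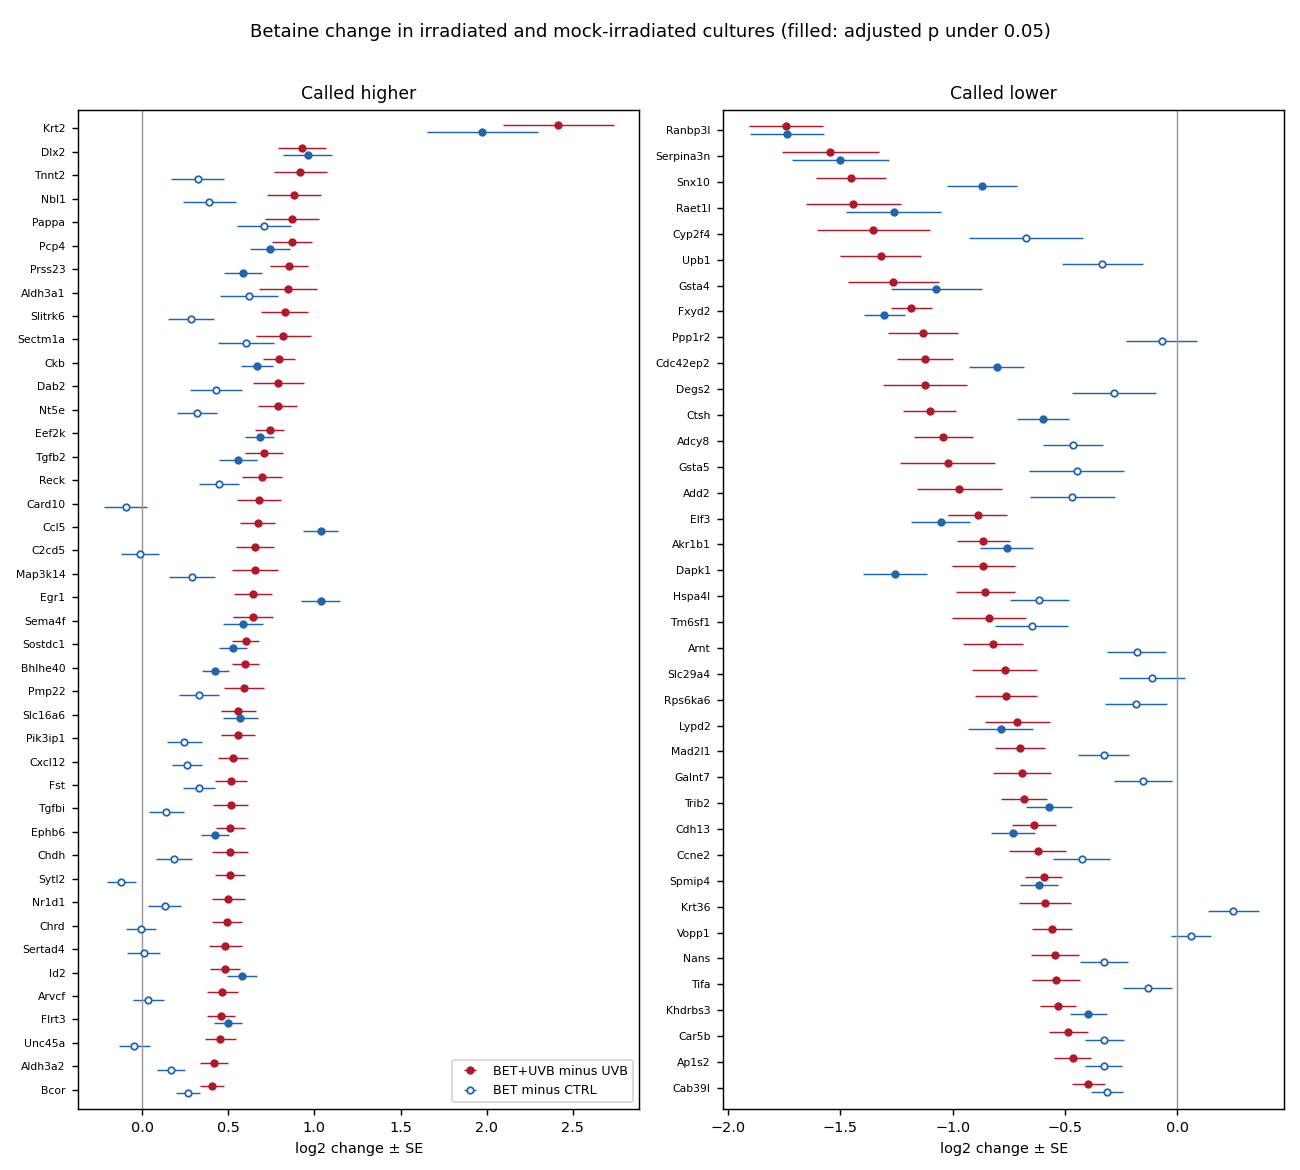
Log2 change with its standard error for the 80 genes with a symbol that were called in BET+UVB against UVB, shown for BET+UVB minus UVB (red) and BET minus CTRL (blue); filled points have an adjusted p under 0.05. Most blue points lie on the same side of 0 as the red ones, and of those on the other side that of Krt36 lies furthest from 0, at 0.25.

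Whether the betaine change differed between irradiated and mock-irradiated cultures was tested gene by gene as an interaction. No gene was called, 0 percent of 10937, at a smallest adjusted p of 0.429, while 880 genes had an unadjusted p under 0.05 and a model with weighted arrays called 10. The median standard error of this difference was 0.172 log2, beside 0.121 for the comparison of 2 groups. Among the 97 called genes, 37 had an unadjusted interaction p under 0.05. These genes were chosen by their change in irradiated cultures, which is part of this difference. Small p-values are therefore favoured among them, and the count does not show that the betaine change differed. Among these 97 genes the largest difference was that of Ppp1r2, which changed by −1.13 in irradiated and −0.07 in mock-irradiated cultures. The difference was −1.06 ± 0.22 (adjusted p = 0.557). Upb1 changed by −1.32 in irradiated and −0.33 in mock-irradiated cultures (difference −0.99 ± 0.25, adjusted p = 0.574), and Card10 by 0.68 in irradiated and −0.10 in mock-irradiated cultures (difference 0.78 ± 0.18, adjusted p = 0.557). In irradiated cultures Chrd changed by 0.49, Sytl2 by 0.51 and Krt36 by −0.59, against −0.01, −0.12 and 0.25 for the same genes in mock-irradiated cultures. None of these differences passed the adjustment, and a p above the threshold does not show that the changes were alike.

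Mitosis genes had a median betaine change of −0.03 in irradiated and −0.44 in mock-irradiated cultures, and DNA replication genes one of −0.10 in irradiated and −0.22 in mock-irradiated cultures. Mcm3 changed by −0.07 ± 0.11 in irradiated cultures and by −0.65 ± 0.11 in mock-irradiated cultures, where it was called (adjusted p = 0.0258), and the difference of 0.57 ± 0.16 was not called (adjusted p = 0.574). For interleukin 1 family genes the medians were −0.07 in irradiated and 0.46 in mock-irradiated cultures. Il1a gave a difference of −1.31 ± 0.41 (adjusted p = 0.574).

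The change after UVB alone is given beside these values for a few genes only, since UVB against CTRL uses the same UVB arrays. Krt2 had a mean of 8.20 ± 0.20 in BET+UVB, 5.79 ± 0.51 in UVB, 9.35 ± 0.67 in BET and 7.38 ± 0.36 in CTRL cultures (SD). Its UVB level was the lowest of the 4 groups, and its BET+UVB level lay between those of CTRL and BET. Pcp4 averaged 9.85 in BET+UVB, 8.98 in UVB, 11.31 in BET and 10.57 in CTRL cultures, so both irradiated groups were below both mock-irradiated ones. Nbl1 averaged 8.03 in BET+UVB, 7.15 in UVB, 8.75 in BET and 8.36 in CTRL cultures, and Tgfb2 averaged 8.45, 7.74, 9.21 and 8.65 in the same groups. Upb1 had its highest mean in UVB cultures: 7.28 in BET+UVB, 8.60 in UVB, 6.81 in BET and 7.15 in CTRL cultures. Akr1b1 was also highest in UVB cultures, at 12.48 in BET+UVB, 13.34 in UVB, 11.90 in BET and 12.66 in CTRL cultures. For Ranbp3l the cultures with betaine were the low ones: 10.96 in BET+UVB, 12.71 in UVB, 11.37 in BET and 13.11 in CTRL cultures.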

How the data were processed

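Per the labels' protocols, total RNA of each culture was amplified, biotinylated and hybridised to an Illumina RatRef-12 BeadChip. The deposited table gives, per the file headers, a non-normalised signal intensity and a detection p-value for each probe and array. The authors' processed values, taken as log2 from their range, were used only as an alternative, and how they were normalised is not given in the sources used here. Precision is limited by 3 arrays per group.

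Intensities were background-corrected from the detection p-values and quantile-normalised (neqc, offset 16) with limma 3.58.1 in R 4.3.3, and the probe with the highest mean stood for each gene. Gene names were updated through a RefSeq table (GRCr8, names only), which matched 16911 of 22523 probes; Bhlhe40, Krt36, Trib2, C2cd5, Vopp1 and Sertad4 were reached through a synonym, and Ranbp3l, Gsta5, Spmip4 and Rps6ka6 through a gene ID. All 12 arrays entered 1 limma model with a mean per group and no block, with empirical Bayes moderation and Benjamini-Hochberg adjustment over 10937 genes. The procedure was also run on simulated data, with noise drawn separately for each gene and array. That run did not cover scatter shared by the genes of an array.

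The genes and lists were chosen with earlier results of these data known. Named were the 20 largest rises and 20 largest falls among detected calls, called list members, calls shared by both betaine comparisons and 28 index genes, and, added after the values were seen, the 25 remaining calls with a symbol. List members without a call that serve as examples were also picked after their values were seen. A gene undetected on all arrays of a group is given as a bound against the lowest detected signal of each array. Such a bound holds only for values as normalised here. Alternatives were the authors' values, median scaling, no background correction, an offset of 50, other detection filters, the mean of probes, array weights, a trended prior, the culture letter as a block, a model of 2 groups, and leaving out each array.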

Additional observations from a re-analysis of the deposited data

How the results depend on the processing

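Precision is limited by 3 arrays per group and, for genes detected in a single group, by the background. Many changes were smaller in the authors' processed values: 63 of the 97 called genes changed there by under the reported value divided by 1.5, 119 genes were called and 68 were shared. The calls in BET+UVB against UVB numbered 762 with array weights and 318 in a model of these groups alone. For BET against CTRL, 430 were called with array weights and 7 in a model of those groups alone. Array weights gave 10 calls in the interaction and 149 shared calls. The cause was not tested; array weights ran from 0.272 for BET C to 3.86 for BET A, and within the compared groups from 0.51 for UVB C to 1.57 for BET+UVB A. Leaving out 1 array gave 26 to 238 calls in BET+UVB against UVB, 16 to 102 in BET against CTRL, 0 in the interaction and 12 to 32 shared ones. Total counts under all other settings stayed within 1.5 times of those reported, at 80 to 139 in BET+UVB against UVB, but with median scaling the split in BET against CTRL became 21 higher and 109 lower. Of 82 named calls, 22 were lost with the authors' values, 20 with the replicate block and 13 with median scaling. With the authors' values the lost rises were Krt2, Pappa, Sectm1a, Dab2, Ccl5, C2cd5, Map3k14, Sytl2 and Chrd. The lost falls were Tifa, Krt36, Spmip4, Ccne2, Galnt7, Mad2l1, Lypd2, Rps6ka6, Slc29a4, Arnt, Tm6sf1, Dapk1 and Gsta5. No named call turned its direction in any of the 23 settings, and 20 genes were called in all of them. With the replicate block, the letters A, B and C as pairs, 80 genes were called, 72 of them shared. Cultures of 1 letter correlated in their deviations at −0.004, 0.241 and 0.175, and cultures of different letters at −0.234 to 0.024. With 3 cultures per group these values cannot decide whether the letters are pairs. The main model left them unpaired, as the labels do not tie them.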
